A study of Mus musculus with 6 samples.

Results

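The genes described here are 33 genes of glycolysis and lactate transport, taken by symbol from the 32286 features of the deposited count matrices. They cover glucose carriers (Slc2a1, Slc2a3, Slc2a4), hexokinases (Hk1, Hk2, Hk3) and the ADP-dependent glucokinase Adpgk, and the hexose phosphate enzymes Gpi1 and Pgm2. Next come phosphofructokinases (Pfkl, Pfkm, Pfkp), the enzymes that set fructose 2,6-bisphosphate (Pfkfb1, Pfkfb2, Pfkfb3, Pfkfb4), aldolases (Aldoa, Aldoc) and triose phosphate isomerase (Tpi1). The lower steps are Gapdh, Pgk1, Pgam1, Pgam2, Bpgm, the enolases Eno1, Eno2 and Eno3, and pyruvate kinase (Pkm). Lactate dehydrogenases (Ldha, Ldhb), the lactate carriers Slc16a1 and Slc16a3, and Pdk1, a kinase that holds back pyruvate dehydrogenase, close the set. All 33 symbols were found, and each was counted in at least 1 of the named cell classes.

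The libraries came from quadriceps muscle of 6 mice, 1 library a mouse, all injured with cardiotoxin, a snake venom toxin that kills muscle fibres and starts their regeneration. Every mouse was of the line Cdh5-CreERT2:R26R-tdTomato, in which a tamoxifen-inducible Cre driven from an endothelial promoter switches on a red reporter, so controls carried these alleles too. The 3 CLL mice received clodronate liposomes into a vein, which partly ablate circulating monocytes, and the 3 SHAM mice received liposomes loaded with PBS. Injections of liposomes preceded the injury by 1 day and were repeated 2 days after it, and muscle was collected on day 5. Partial ablation leaves macrophages in the tissue, so CLL is not a muscle without macrophages. The labels give neither age, sex nor tamoxifen timing.

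Glycolysis splits glucose into pyruvate in the cytosol. Phosphofructokinase is its main control point, pushed forward by fructose 2,6-bisphosphate, and Pgk1 and Pkm are the steps that make ATP. Lactate dehydrogenase turns pyruvate into lactate while restoring NAD+, and proton-coupled carriers move lactate across the membrane, with Slc16a3 (MCT4) typical of cells that export it. Many steps have several isoforms with tissue preferences, such as Eno3, Pgam2 and Pfkm in muscle fibres, and many of the genes are known targets of hypoxia-inducible factor (HIF), whose DNA core motif is ACGTG.

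Promoter sequences were matched by symbol to RefSeq windows of build GRCm38.p6 that run from 250 bases before to 50 bases after an annotated start. At least 1 window was found for 31 members, 49 windows in all, and none for Slc2a3 and Slc2a4. The letters ACGTG were searched on both strands, so that CACGT also counts and CACGTG counts on each strand. They occurred in 22 of the 49 member windows (44.9%), against 6447 of 32851 windows of all genes (19.62%). Of the 12 windows of the 8 genes that passed the test in 3 cell classes below, 7 held them (58.33%). A letter match is a description of the window, not evidence of binding. The promoters of 5 of these genes are shown 5′ to 3′ on the coding strand, with each match in capitals, chosen among the 8 for windows that hold a match. They are Slc16a3 at chr11:120948817-120949116 with matches 27 and 14 bases before the start, Pgk1 at chrX:106186850-106187149 with matches 150 and 131 bases before it, Pgam1 at chr19:41911621-41911920 with 1 match 114 bases before it, Ldha at chr7:46845554-46845853 with 5 matches that include 2 CACGTG, and Pkm at chr9:59656977-59657276 with 2 matches, all on the + strand. Aldoa has 1 match in each of 2 overlapping windows, not shown, and none in another. Both matches are the same site, which is counted once for each window. The windows of Pfkl and Tpi1 hold no match, nor do the other windows of Ldha (chr7:46846832-46847131) and Pkm (chr9:59656326-59656625).
Slc16a3: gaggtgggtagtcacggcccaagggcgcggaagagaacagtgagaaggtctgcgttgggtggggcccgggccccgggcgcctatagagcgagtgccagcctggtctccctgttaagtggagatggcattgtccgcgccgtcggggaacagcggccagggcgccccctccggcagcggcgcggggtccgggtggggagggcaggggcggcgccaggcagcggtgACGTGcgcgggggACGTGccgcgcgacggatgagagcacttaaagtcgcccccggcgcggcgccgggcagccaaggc
Pgk1: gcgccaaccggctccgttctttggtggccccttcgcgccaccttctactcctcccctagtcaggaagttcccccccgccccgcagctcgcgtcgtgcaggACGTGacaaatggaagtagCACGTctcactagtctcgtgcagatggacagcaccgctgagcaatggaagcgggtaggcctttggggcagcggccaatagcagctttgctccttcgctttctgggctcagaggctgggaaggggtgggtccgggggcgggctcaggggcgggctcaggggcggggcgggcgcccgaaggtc
Pgam1: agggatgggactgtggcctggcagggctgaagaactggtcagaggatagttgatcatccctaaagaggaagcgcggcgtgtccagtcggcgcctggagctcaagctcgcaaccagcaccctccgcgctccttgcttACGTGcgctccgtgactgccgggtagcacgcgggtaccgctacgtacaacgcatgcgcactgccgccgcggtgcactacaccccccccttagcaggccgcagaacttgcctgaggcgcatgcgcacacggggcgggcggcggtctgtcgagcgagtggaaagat
Ldha: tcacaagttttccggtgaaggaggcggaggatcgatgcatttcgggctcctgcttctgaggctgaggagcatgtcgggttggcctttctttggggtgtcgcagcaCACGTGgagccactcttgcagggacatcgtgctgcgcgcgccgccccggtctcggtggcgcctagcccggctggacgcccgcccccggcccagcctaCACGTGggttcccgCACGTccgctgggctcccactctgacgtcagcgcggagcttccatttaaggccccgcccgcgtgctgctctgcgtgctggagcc
Pkm: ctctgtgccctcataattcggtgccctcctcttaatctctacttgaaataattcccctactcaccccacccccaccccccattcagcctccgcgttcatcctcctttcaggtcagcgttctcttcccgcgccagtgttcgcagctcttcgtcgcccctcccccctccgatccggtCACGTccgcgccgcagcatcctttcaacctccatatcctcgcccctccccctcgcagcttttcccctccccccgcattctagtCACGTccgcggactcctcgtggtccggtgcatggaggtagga

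RNA was counted per cell as unique molecular identifiers (UMIs), each tagging 1 transcript near its 3′ end. Total UMIs per library ran from 23873416 to 94841003, and 46685 of 60282 barcodes were kept. The libraries differed in depth, with a median of 879 UMIs per kept cell in SHAM replicate 3 and 1624 in CLL replicate 2 against 2760 to 13820 in the others. These 2 libraries stand apart also because 82.02% and 53.64% of their cells lay in clusters left unnamed, against 13.85% to 22.61% elsewhere, and SHAM replicate 3 had a median mitochondrial share of 0.127%, against 1.458% to 4.25%. Pairs of libraries shared 2 to 97 barcodes. Of 28 clusters, 19 were named from marker genes and joined into 11 classes, called "-like" because they rest on transcripts alone. Of these, 5 classes held at least 20 cells in every library and could be tested: 9222 fibroblast/tenocyte-like, 8554 macrophage/monocyte-like, 3456 myogenic-like, 3318 endothelial-like and 1794 dendritic-like cells. Values are in CPM, the UMIs of a gene scaled to the total UMIs of that class in that library, given for replicates 1, 2 and 3 in turn. Each transcript gives 1 tag, so CPM was not divided by gene length, but capture can still differ between genes.

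In the SHAM mice the classes used the same backbone of ubiquitous isoforms and differed in a few steps. Gapdh was the most abundant member in fibroblast/tenocyte-like, macrophage/monocyte-like, myogenic-like, endothelial-like and dendritic-like cells, at 535 ± 70.2 CPM, 665 ± 105 CPM, 1603 ± 373 CPM, 775 ± 224 CPM and 633 ± 248 CPM (mean ± SD, 3 libraries). Averaged over all 6 libraries, CLL and SHAM, Gapdh, Aldoa, Pkm and Ldha together made up 53.50% to 68.14% of member UMIs in these classes. The summed level of the 33 genes was 9488, 18070 and 8928 CPM in the SHAM libraries of myofibre-like cells and 2057 to 4169 CPM in the 5 tested classes. The classes come from clustering the same cells, so differences between them are descriptions with no test.

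**Figure D1:**
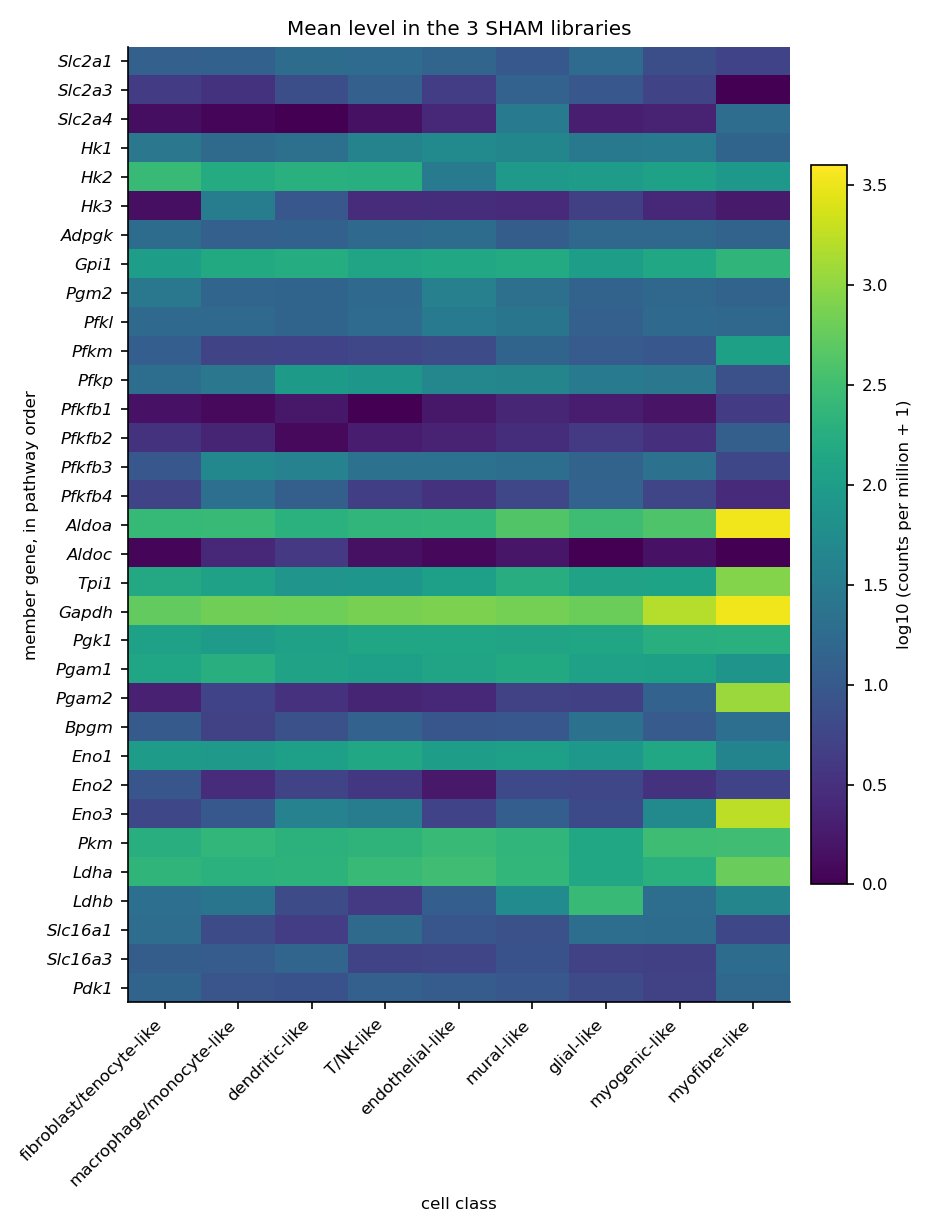
Mean level of each of the 33 genes in the 3 SHAM libraries, as log10(CPM + 1), by gene (rows, in pathway order) and cell class (columns). Myofibre-like cells stand out for Eno3, Pgam2, Pfkm and Aldoa, glial-like cells for Ldhb, and macrophage/monocyte-like cells for Hk3.

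Eno3, Pgam2 and Pfkm led their steps in myofibre-like cells and in none of the other 8 classes drawn below. There Eno3, the muscle enolase, carried 97.5 ± 2.62% of the enolase UMIs, Pgam2, the muscle mutase, 93.0 ± 4.69% of the mutase UMIs, and Pfkm 83.4 ± 5.79% of the phosphofructokinase UMIs in SHAM (mean ± SD, 3 libraries). These shares are thin, since the smallest SHAM library held 75 enolase UMIs, 51 mutase UMIs and 9 phosphofructokinase UMIs, and Pgam2 is among the 10 leading genes of that cluster. Myogenic-like cells, of which cluster 2 is led by the satellite cell genes Pax7 and Myf5 and cluster 1 by the differentiation genes Myog and Tnnt2, mostly used Eno1 (72.5 ± 7.69%) and Pgam1 (89.9 ± 1.96%), with Eno3 at 26.1 ± 7.58%. In the other tested classes Pgam2 stayed at 0.8276% to 2.292% of mutase UMIs.

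Fibre transcripts were compared with Ckm, the fibre creatine kinase, in each class. Myofibre-like cells gave 0.4247 Eno3 UMIs and 0.2956 Pgam2 UMIs per UMI of Ckm. Pgam2 UMIs per Ckm UMI were 0.3378 in macrophage/monocyte-like, 0.3538 in myogenic-like, 0.3171 in dendritic-like, 0.3913 in endothelial-like and 0.7604 in fibroblast/tenocyte-like cells. The part of free fibre RNA in the Pgam2 of these classes was not tested. Dendritic-like cells gave 10.49 Eno3 UMIs per Ckm UMI, with Eno3 at 29.62 to 84.15 CPM and Ckm at 0 to 8.733 CPM. This ratio was 0.723 in macrophage/monocyte-like, 1.043 in endothelial-like, 1.519 in myogenic-like and 3.188 in fibroblast/tenocyte-like cells. Eno3 was 27.6 ± 6.43% of enolase UMIs in dendritic-like cells, next to 10.4 ± 5.26% in macrophage/monocyte-like and 4.69 ± 3.08% in endothelial-like cells. In fibroblast/tenocyte-like cells Pfkm gave 5.703 UMIs per Ckm UMI, against 0.03005 in myofibre-like cells.

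Hexokinases, which trap glucose by phosphorylation, split the classes further. Hk2, the inducible form, carried 91.2 ± 0.981% of hexokinase UMIs in fibroblast/tenocyte-like, 87.1 ± 5.83% in dendritic-like and 76.0 ± 5.15% in macrophage/monocyte-like cells of SHAM. Hk1 led by the mean of libraries in endothelial-like cells, with 63.2 ± 15.1%, and in no other class of the 9 drawn. Single libraries differed from that: Hk2 made up 52.2% in endothelial-like SHAM replicate 1, which holds most SHAM cells of the class, and 30.2% in mural-like SHAM replicate 2. Hk3, a myeloid form, reached 16.1 ± 3.56% in macrophage/monocyte-like cells, 3.97 ± 2.68% in dendritic-like cells and 0.132% to 2.99% in the other classes drawn.

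The phosphofructokinase and lactate steps gave other contrasts. Pfkp, the platelet form, made up 83.0 ± 4.90% of phosphofructokinase UMIs in dendritic-like and 78.8 ± 7.37% in T/NK-like cells, against 41.5 ± 6.40% in fibroblast/tenocyte-like cells. Ldhb, the subunit that favours lactate use, carried 65.0 ± 6.096% of lactate dehydrogenase UMIs in glial-like cells, whose Ldhb was 198, 296 and 327 CPM in SHAM. In the 5 tested classes Ldhb stayed between 2.626% and 10.91%. Of the lactate carriers, Slc16a3 had 64.0 ± 6.35% of UMIs in macrophage/monocyte-like and 79.7 ± 13.9% in dendritic-like cells (13 UMIs in the smallest library), while Slc16a1 led in myogenic-like cells with 82.4 ± 10.4%. Slc2a4, the insulin-responsive glucose carrier, was 58.0 ± 5.45% of glucose carrier UMIs in mural-like cells, which held 32 such UMIs in their smallest SHAM library. Of the 3 glucose carriers Slc2a1 led in every tested class, with 83.1 ± 10.5% in macrophage/monocyte-like and 51.4 ± 2.45% in myogenic-like cells.

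**Figure D2:**
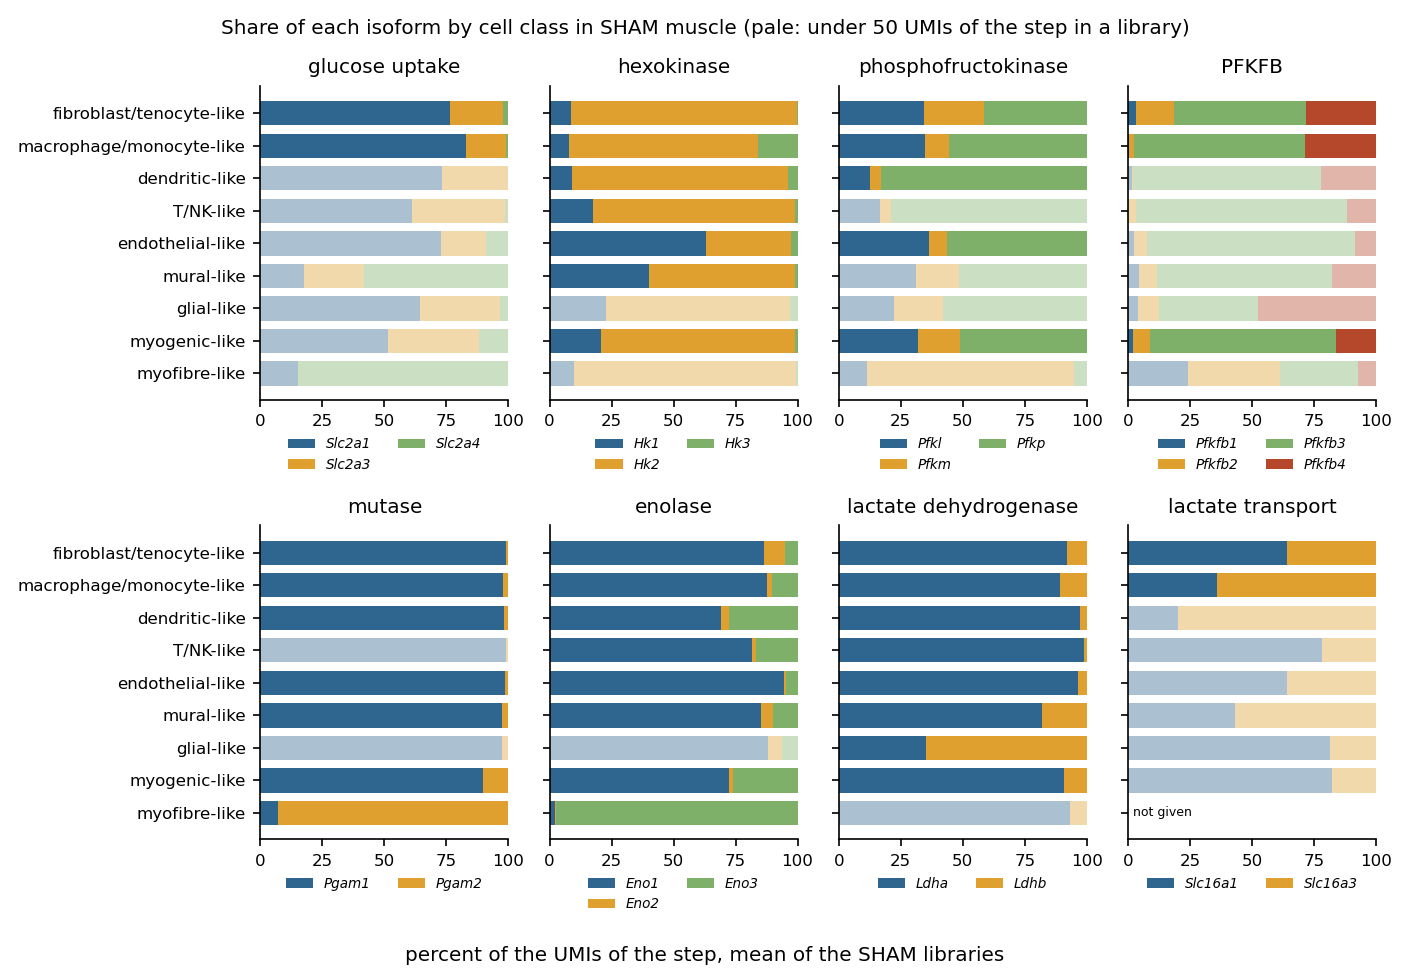
Share of each step's UMIs carried by each isoform (stacked bars, percent, mean of the 3 SHAM libraries) in 9 cell classes. Pale bars mark classes with fewer than 50 UMIs of the step in a SHAM library. Endothelial-like cells show Hk1 ahead of Hk2, and glial-like cells show Ldhb ahead of Ldha.

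The main comparison asks how the genes differ between CLL and SHAM muscle within each class. Genes from glucose uptake to lactate export were higher in CLL in fibroblast/tenocyte-like cells, and fewer of them in macrophage/monocyte-like and myogenic-like cells. Of 31 members that passed the filter on low counts in fibroblast/tenocyte-like cells, 19 rose and 1 fell, where 12.3% of all 14148 genes tested rose and 14.0% fell. The macrophage/monocyte-like class had 10 of 31 that rose and 0 that fell, where 2.22% of 11476 genes rose and 2.95% fell. In myogenic-like cells 10 of 27 rose and 1 fell, where 2.95% of 11120 genes rose and 3.61% fell. In dendritic-like cells 1 of 21 rose and 0 fell, where 0.670% of 7462 genes rose and 1.65% fell. In endothelial-like cells 0 of 22 passed, where 0.0641% of 9363 genes rose and 0.320% fell. The CLL libraries held only 39, 204 and 58 cells of this class and the SHAM libraries 2550, 283 and 184. With so few CLL cells, the lack of calls does not show that the endothelial-like members were unchanged. There, 2 members had an unadjusted p under 0.05 and DESeq2 called 1. The filter decides which members are tested, and 2, 2, 6, 12 and 11 members stayed untested in these classes, in that order.

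The summed level of the 33 genes separated the groups in the first 3 of these classes. It was 4832, 5693 and 4992 CPM in CLL and 2340, 2092 and 2464 CPM in SHAM in fibroblast/tenocyte-like cells. It was 4063, 4077 and 4178 CPM against 2499, 2118 and 2680 CPM in macrophage/monocyte-like cells, and 4892, 5379 and 5468 CPM against 3141, 3427 and 4169 CPM in myogenic-like cells. Every CLL sum in these classes lay above every SHAM sum. In endothelial-like cells the sums were 2357, 2562 and 3584 CPM in CLL and 2242, 2313 and 2986 CPM in SHAM, and in dendritic-like cells 2530, 2862 and 2525 CPM and 2116, 2057 and 2867 CPM, so in both the groups overlapped. The median log2 fold change of the tested members was 0.59, 0.33, 0.65, 0.22 and 0.26 in fibroblast/tenocyte-like, macrophage/monocyte-like, myogenic-like, dendritic-like and endothelial-like cells. The medians over all genes tested lay between -0.0529 and -0.00354.

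**Figure D3:**
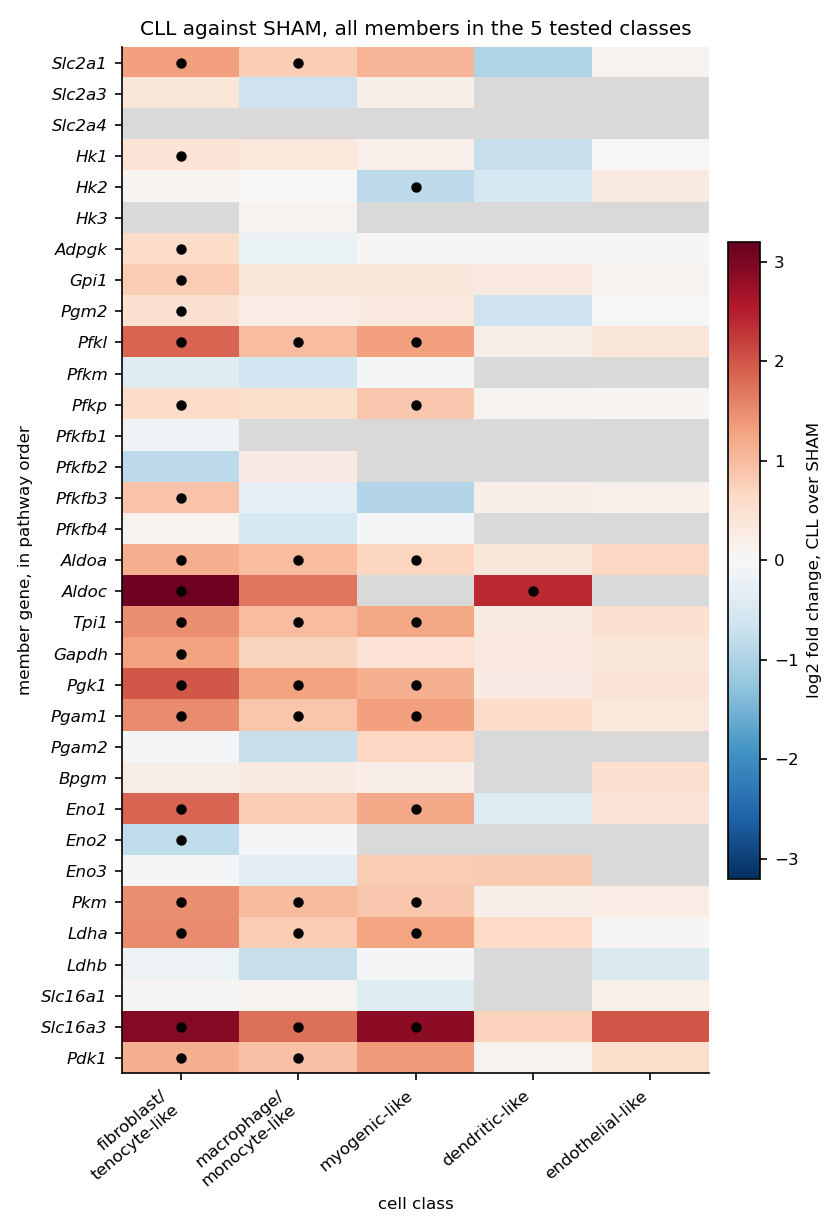
Log2 fold change of CLL over SHAM for the 33 genes (rows, in pathway order) in the 5 tested classes (columns). A dot marks an adjusted p under 0.05 and grey marks a gene that was not tested there. Dots fill most of the fibroblast/tenocyte-like column, and the endothelial-like column has none.

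In all of fibroblast/tenocyte-like, macrophage/monocyte-like and myogenic-like cells, 8 members rose: Pfkl, Aldoa, Tpi1, Pgk1, Pgam1, Pkm, Ldha and Slc16a3. They run from the committing step to lactate export. How many of all genes tested rose in the same 3 classes was not counted. None of the 8 passed in dendritic-like or endothelial-like cells.

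Glucose uptake and trapping rose in part. Slc2a1, the basal glucose carrier GLUT1, was 25.4, 37.0 and 20.6 CPM in CLL and 14.6, 12.1 and 8.52 CPM in SHAM in fibroblast/tenocyte-like cells, a log2 fold change of 1.30 ± 0.23 (SE, adjusted p = 0.00231). Macrophage/monocyte-like cells had 18.2, 22.4 and 23.2 CPM in CLL and 14.8, 12.0 and 10.1 CPM in SHAM of it, a log2 fold change of 0.78 ± 0.17 (SE, adjusted p = 0.0305). That call stayed in 2 of the 6 fits that left out 1 library. Every CLL library lay above every SHAM library in both classes. Slc2a3, the high-affinity carrier GLUT3, was tested in 3 classes and passed in none, and Slc2a4 stayed under the filter in all 5 classes.

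The hexokinase calls went in different directions in 2 classes. Hk1 was 31.2, 37.0 and 28.9 CPM in CLL and 25.9, 26.0 and 24.6 CPM in SHAM in fibroblast/tenocyte-like cells and rose by 0.43 ± 0.12 (SE, adjusted p = 0.0243) on the log2 scale. Hk2 fell in myogenic-like cells, where it was 58.8, 63.5 and 49.7 CPM in CLL and 139.6, 114 and 87.5 CPM in SHAM, a log2 fold change of -0.85 ± 0.18 (SE, adjusted p = 0.0285). In fibroblast/tenocyte-like cells Hk2 was 306, 268 and 225 CPM in CLL and 298, 294 and 228 CPM in SHAM with a log2 fold change of 0.06 ± 0.15 (SE, adjusted p = 0.821), past no threshold. Hk3 was tested in macrophage/monocyte-like cells alone, with a log2 fold change of 0.11 ± 0.14 (SE, adjusted p = 0.722). Adpgk, which uses ADP in place of ATP, was 25.4, 24.3 and 26.2 CPM in CLL and 20.5, 14.1 and 18.8 CPM in SHAM in fibroblast/tenocyte-like cells and rose by 0.59 ± 0.13 (SE, adjusted p = 0.0077). Of these 3 calls, those of Hk1 and Hk2 did not hold in each of the 6 fits that left out 1 library: Hk1 kept its call in 3 and Hk2 in 2, while Adpgk kept it in 6.

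Gpi1, which turns glucose 6-phosphate into fructose 6-phosphate, and Pgm2, a mutase of pentose and hexose phosphates, rose in fibroblast/tenocyte-like cells. Gpi1 was 166, 168 and 170 CPM in CLL and 98.3, 92.0 and 116 CPM in SHAM, a log2 fold change of 0.81 ± 0.12 (SE, adjusted p = 0.000886). Pgm2 was 31.9, 37.3 and 35.5 CPM in CLL and 27.5, 25.1 and 27.4 CPM in SHAM, a log2 fold change of 0.48 ± 0.11 (SE, adjusted p = 0.00874). Neither passed in another tested class.

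Phosphofructokinase rose mainly through Pfkl, the liver form. In fibroblast/tenocyte-like cells Pfkl was 47.7, 62.5 and 52.0 CPM in CLL and 16.8, 12.1 and 19.0 CPM in SHAM, a log2 fold change of 1.85 ± 0.16 (SE, adjusted p = 5.57e-05). Macrophage/monocyte-like cells had 25.5, 37.4 and 34.1 CPM in CLL and 14.6, 13.2 and 20.8 CPM in SHAM, a log2 fold change of 0.98 ± 0.20 (SE, adjusted p = 0.0229), a call that was lost when any 1 CLL library was left out. In myogenic-like cells it was 29.0, 45.2 and 35.1 CPM in CLL and 16.3, 16.1 and 15.6 CPM in SHAM, a log2 fold change of 1.32 ± 0.20 (SE, adjusted p = 0.00726). The groups were apart in each of the 3 classes. Pfkp was 25.9, 31.9 and 23.1 CPM in CLL and 23.1, 17.0 and 17.0 CPM in SHAM in fibroblast/tenocyte-like cells and 41.8, 44.4 and 44.0 CPM in CLL and 32.5, 21.8 and 23.8 CPM in SHAM in myogenic-like cells. Its log2 fold changes were 0.58 ± 0.15 (SE, adjusted p = 0.016) and 0.86 ± 0.16 (SE, adjusted p = 0.0165). These Pfkp calls stayed in 5 and 3 of the 6 fits without 1 library. Pfkm, the muscle form, was tested in 3 classes and passed in none.

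Pfkfb3, which makes fructose 2,6-bisphosphate, was 13.3, 21.7 and 11.6 CPM in CLL and 10.9, 7.77 and 6.96 CPM in SHAM in fibroblast/tenocyte-like cells and rose by 0.92 ± 0.24 (SE, adjusted p = 0.0165) on the log2 scale. In macrophage/monocyte-like cells, where its level was higher, it was 36.8, 55.6 and 30.0 CPM in CLL and 53.2, 44.2 and 44.4 CPM in SHAM and its log2 fold change was -0.25 ± 0.17 (SE, adjusted p = 0.443). Pfkfb1, Pfkfb2 and Pfkfb4 were tested in 1, 2 and 3 classes and passed in none.

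Aldolase and triose isomerase rose together. Aldoa, the main aldolase, was 481, 582 and 538 CPM in CLL and 236, 236 and 290.3 CPM in SHAM in fibroblast/tenocyte-like cells, a log2 fold change of 1.16 ± 0.13 (SE, adjusted p = 0.000278). It was 507, 535 and 545 CPM in CLL and 259, 216 and 316 CPM in SHAM in macrophage/monocyte-like cells, a log2 fold change of 1.00 ± 0.16 (SE, adjusted p = 0.0109). Myogenic-like cells held 514, 622 and 622 CPM in CLL and 353, 398 and 447 CPM in SHAM of it, a log2 fold change of 0.70 ± 0.16 (SE, adjusted p = 0.0359) whose call stayed in only 1 of the 6 fits without 1 library. A second identifier that carries the Aldoa symbol had at most 0.15 CPM on average in any class. How many reads matched both copies cannot be read from these counts.

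Tpi1, which links both triose products, was 355, 431 and 377 CPM in CLL and 150.5, 129 and 159.8 CPM in SHAM in fibroblast/tenocyte-like cells. It was 216, 271 and 211 CPM in CLL and 114, 110.1 and 120.3 CPM in SHAM in macrophage/monocyte-like cells and 211, 338 and 215 CPM in CLL and 119, 102 and 142 CPM in SHAM in myogenic-like cells. All CLL libraries exceeded all SHAM libraries in these classes, with log2 fold changes of 1.50 ± 0.12 (SE, adjusted p = 5.57e-05), 1.00 ± 0.13 (SE, adjusted p = 0.00477) and 1.23 ± 0.22 (SE, adjusted p = 0.0146).

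Aldoc, the brain-type aldolase, was the 1 member that passed in dendritic-like cells. It was 9.81, 22.2 and 14.7 CPM in CLL and 1.90, 4.20 and 2.66 CPM in SHAM, a log2 fold change of 2.39 ± 0.51 (SE, adjusted p = 0.0331), and the call stayed in 1 of the 6 fits without 1 library. In CLL replicate 2 and in each SHAM library these values are a few UMIs, so the size of this fold is uncertain. In fibroblast/tenocyte-like cells Aldoc was far rarer, at 1.36, 1.30 and 0.946 CPM in CLL and 0.0736, 0.130 and 0.284 CPM in SHAM, a log2 fold change of 3.12 ± 0.53 (SE, adjusted p = 0.00215). Its SHAM values there are a few UMIs, near the floor, so the size of this fold is uncertain. Within dendritic-like cluster 17, led by Cd209a, Aldoc rose by 2.69 ± 0.52 (SE, adjusted p = 0.0258).

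**Figure D4:**
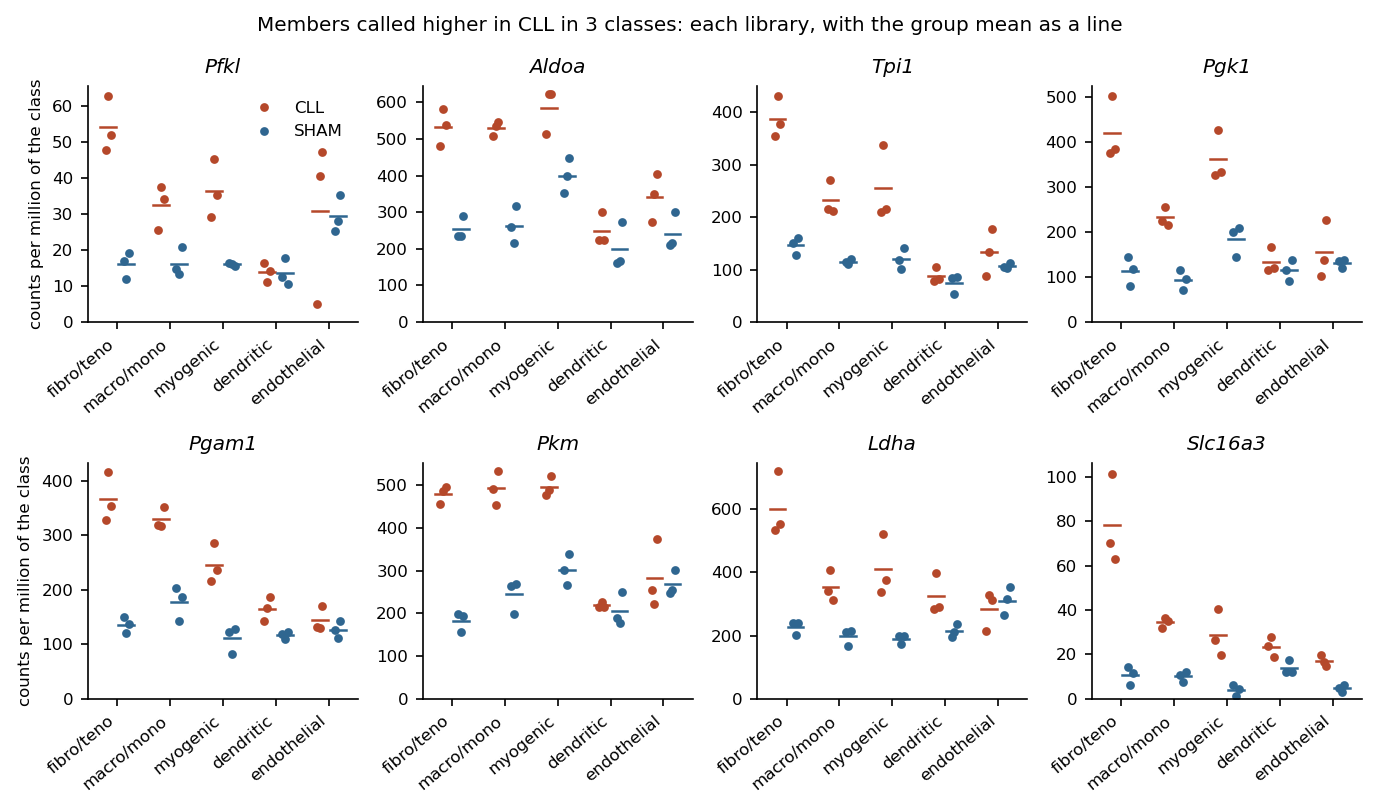
Level of the 8 genes that rose in 3 classes (panels), as CPM in each CLL and SHAM library (points) of the 5 tested classes, with a line at each group mean. In fibroblast/tenocyte-like and macrophage/monocyte-like cells the CLL points lie above the SHAM points in every panel, while the groups overlap in 7 of 8 panels in endothelial-like and in 5 of 8 in dendritic-like cells.

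The lower pathway held the most abundant genes. Gapdh, the dehydrogenase that passes electrons to NAD+, was 1187, 1234 and 1247 CPM in CLL and 499, 490.5 and 616 CPM in SHAM in fibroblast/tenocyte-like cells, a log2 fold change of 1.28 ± 0.13 (SE, adjusted p = 0.000167). It did not pass in macrophage/monocyte-like cells, where it was 1140, 979 and 1180 CPM in CLL and 607, 602 and 786 CPM in SHAM, a log2 fold change of 0.72 ± 0.18 (SE, adjusted p = 0.0515). In myogenic-like cells Gapdh was 2012, 1672 and 2340 CPM in CLL and 1203, 1662 and 1943 CPM in SHAM, a log2 fold change of 0.46 ± 0.22 (SE, adjusted p = 0.225).

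Pgk1, the first ATP-making step, had one of the larger changes among abundant members. It was 377, 504 and 384 CPM in CLL and 145, 79.2 and 119 CPM in SHAM in fibroblast/tenocyte-like cells, a log2 fold change of 1.98 ± 0.19 (SE, adjusted p = 0.000111). Macrophage/monocyte-like cells held 225, 257 and 216 CPM in CLL and 116, 71.6 and 96.3 CPM in SHAM, a log2 fold change of 1.30 ± 0.14 (SE, adjusted p = 0.00279), and myogenic-like cells 328, 427 and 333 CPM in CLL and 200, 146 and 209 CPM in SHAM, a log2 fold change of 1.13 ± 0.18 (SE, adjusted p = 0.00824). No CLL library of these classes overlapped a SHAM library. Dendritic-like cells had 116, 166 and 121 CPM in CLL and 117, 90.6 and 137 CPM in SHAM, a log2 fold change of 0.27 ± 0.23 (SE, adjusted p = 0.592).

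Pgam1, the widely expressed mutase, was 328, 417 and 354 CPM in CLL and 151, 121 and 137 CPM in SHAM in fibroblast/tenocyte-like cells. It was 320.1, 318 and 353 CPM in CLL and 204, 143 and 186 CPM in SHAM in macrophage/monocyte-like cells and 216, 286 and 237 CPM in CLL and 122, 81.6 and 129 CPM in SHAM in myogenic-like cells. The groups were apart in each, with log2 fold changes of 1.52 ± 0.13 (SE, adjusted p = 5.57e-05), 0.90 ± 0.14 (SE, adjusted p = 0.0109) and 1.31 ± 0.19 (SE, adjusted p = 0.00525). Pgam2 and Bpgm, which makes 2,3-bisphosphoglycerate, were tested in 3 and 4 classes and passed in none.

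Enolase genes went in different directions in fibroblast/tenocyte-like cells. Eno1, the common form, was 271, 417 and 291 CPM in CLL and 70.0, 76.3 and 141 CPM in SHAM there, a log2 fold change of 1.86 ± 0.26 (SE, adjusted p = 0.000678). Eno2, the neuronal form, was the 1 member that fell there, from a low level, with 4.68, 4.67 and 3.95 CPM in CLL and 10.3, 8.03 and 6.25 CPM in SHAM and a log2 fold change of -0.81 ± 0.20 (SE, adjusted p = 0.012). The Eno2 call stayed in 4 of the 6 fits that left out 1 library. Within fibroblast/tenocyte-like clusters 12 and 14 Eno2 did not pass, at -0.52 ± 0.28 (SE, adjusted p = 0.391) and -0.50 ± 0.27 (SE, adjusted p = 0.343). Eno1 also rose in myogenic-like cells, at 252, 395 and 261 CPM in CLL and 98.8, 129 and 208 CPM in SHAM, by 1.21 ± 0.29 (SE, adjusted p = 0.0384). There its call stayed in 2 of the 6 fits without 1 library. Eno1b, a near-identical copy of Eno1 listed as its own gene, was 4.26, 5.76 and 3.27 CPM in CLL and 0.736, 1.04 and 1.85 CPM in SHAM in fibroblast/tenocyte-like cells and rose by 2.06 ± 0.35 (SE, adjusted p = 0.00223), so how reads were split between both copies is uncertain.

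Pkm, pyruvate kinase, makes the second ATP. It was 456, 486 and 495 CPM in CLL and 198, 155 and 192 CPM in SHAM in fibroblast/tenocyte-like cells, 492, 454 and 534 CPM in CLL and 265, 199 and 269 CPM in SHAM in macrophage/monocyte-like cells and 477, 489 and 521 CPM in CLL and 300.2, 266 and 339 CPM in SHAM in myogenic-like cells. The groups did not overlap in any of the 3. The log2 fold changes were 1.49 ± 0.12 (SE, adjusted p = 5.51e-05), 1.02 ± 0.15 (SE, adjusted p = 0.0102) and 0.87 ± 0.14 (SE, adjusted p = 0.00982). Counts near the 3′ end cannot tell the M1 and M2 splice forms apart.

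Ldha, the subunit that favours lactate production, was 534, 721 and 553 CPM in CLL and 239, 201 and 239 CPM in SHAM in fibroblast/tenocyte-like cells, a log2 fold change of 1.50 ± 0.14 (SE, adjusted p = 9.37e-05). It was 340, 406 and 311 CPM in CLL and 211, 168 and 216 CPM in SHAM in macrophage/monocyte-like cells and 338, 521 and 377 CPM in CLL and 199, 172 and 199.6 CPM in SHAM in myogenic-like cells, with log2 fold changes of 0.82 ± 0.13 (SE, adjusted p = 0.0114) and 1.27 ± 0.19 (SE, adjusted p = 0.00616). Every CLL library was above every SHAM library. Ldhb did not pass: it was 15.0, 14.9 and 19.2 CPM in CLL and 17.9, 22.8 and 18.3 CPM in SHAM in fibroblast/tenocyte-like cells and 12.9, 10.2 and 18.8 CPM in CLL and 26.1, 23.5 and 22.6 CPM in SHAM in macrophage/monocyte-like cells, with log2 fold changes of -0.17 ± 0.16 (SE, adjusted p = 0.462) and -0.74 ± 0.22 (SE, adjusted p = 0.0792).

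Slc16a3, the lactate exporter MCT4, had the largest fold change of the 8 shared genes in each of the 3 classes. It was 70.3, 102 and 63.2 CPM in CLL and 14.1, 6.22 and 11.7 CPM in SHAM in fibroblast/tenocyte-like cells, a log2 fold change of 2.95 ± 0.24 (SE, adjusted p = 5.57e-05). In macrophage/monocyte-like cells it was 32.1, 36.5 and 35.1 CPM in CLL and 10.7, 7.48 and 12.0 CPM in SHAM, a log2 fold change of 1.77 ± 0.16 (SE, adjusted p = 0.00163), and in myogenic-like cells 26.6, 40.3 and 19.8 CPM in CLL and 6.02, 1.31 and 4.33 CPM in SHAM, a log2 fold change of 2.85 ± 0.40 (SE, adjusted p = 0.00499). The lowest CLL library exceeded the highest SHAM library in all 3. Endothelial-like cells had 19.6, 16.7 and 14.7 CPM in CLL and 4.78, 2.92 and 6.17 CPM in SHAM and a log2 fold change of 1.99 ± 0.50 (SE, adjusted p = 0.164), which did not pass. It is the 1 member that DESeq2 called in that class, with 2.02 ± 0.55 (SE, DESeq2 adjusted p = 0.0328). Slc16a1, the carrier MCT1 that works in both directions, passed in none of the 4 classes where it was tested, and was 17.5, 19.7 and 16.0 CPM in CLL and 18.2, 19.3 and 17.3 CPM in SHAM in fibroblast/tenocyte-like cells.

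Pdk1, which diverts pyruvate from mitochondria, was 28.4, 34.0 and 22.5 CPM in CLL and 16.0, 11.0 and 13.8 CPM in SHAM in fibroblast/tenocyte-like cells and rose by 1.14 ± 0.17 (SE, adjusted p = 0.00102) on the log2 scale. It was 13.2, 22.4 and 11.8 CPM in CLL and 7.97, 6.96 and 9.01 CPM in SHAM in macrophage/monocyte-like cells and rose there by 0.93 ± 0.22 (SE, adjusted p = 0.043), a call lost in each of the 6 fits without 1 library.

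The calls differ in how far they rest on single libraries. Of the 19 members that rose in fibroblast/tenocyte-like cells, 16 kept their call in all 6 fits that left out 1 library. Of the 10 in macrophage/monocyte-like cells 3 did, namely Tpi1, Pgk1 and Slc16a3, and 3 members passed without CLL replicate 1 or without CLL replicate 3. Over all genes of that class, 10 of 11938 rose without CLL replicate 1 and 17 of 11665 without CLL replicate 3. With all 6 libraries 255 of 11476 did. In myogenic-like cells 5 of 10 members kept their call in all 6 fits, namely Pfkl, Pgk1, Pgam1, Ldha and Slc16a3, and 5 passed without SHAM replicate 2. Over all genes of that class, 64 of 12065 rose without SHAM replicate 2 and 328 of 11120 with all 6 libraries. With CLL replicate 2 and SHAM replicate 3 both left out, 16, 4, 10 and 0 members rose in fibroblast/tenocyte-like, macrophage/monocyte-like, myogenic-like and dendritic-like cells. Over all genes, 1103 of 14428, 11 of 11482, 302 of 11885 and 25 of 8425 rose in these classes, in that order.

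The classes were not made of the same cells in both groups. Fibroblast/tenocyte-like cluster 12, led by Ecrg4, Ddah1, Csrp2 and Cthrc1, held 71.54% of that class in CLL and 14.35% in SHAM (mean of 3 libraries), while cluster 14, led by Clec3b, Abca8a and Dlk1, held 12.26% and 74.91%. Macrophage/monocyte-like cluster 9, led by Gpnmb and Mmp12, held 56.89% and 26.51%, cluster 10, led by Cx3cr1, Apoe and H2-Aa, 18.35% and 62.94%, and cluster 11, led by F13a1, Cbr2, Ccl8 and Mrc1, 24.76% and 10.56%. In myogenic-like cells cluster 1, led by Tnnt2 and Myog, held 33.62% and 15.57%, and cluster 2, led by Cdh15, Myf5 and Pax7, the rest. In dendritic-like cells cluster 17, led by Cd209a, held 56.09% and 84.09%, and cluster 23, led by Ccr7, 43.91% and 15.91%. Whole-class values therefore join a change in mixture with changes inside each cluster.

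The comparison was repeated inside single clusters. Each of the 8 shared genes had a log2 fold change above 0 in each of clusters 12, 14, 16, 9, 10, 11 and 2. These genes were picked for rising in the whole classes, of which the clusters are parts, so their direction here is no separate test. Within cluster 12, 9 of 30 tested members rose and 0 fell (1.65% and 1.37% of all genes), within cluster 14, 10 of 28 and 0 (2.19% and 2.14%), and within the tenocyte-like cluster 16, 6 of 18 and 0 (0.855% and 0.949%). Within macrophage/monocyte-like cluster 9, 5 of 29 rose and 1, Ldhb, fell (0.733% and 0.713%), and within cluster 11, 8 of 22 rose and 0 fell (0.723% and 1.53%). Within cluster 10, 0 of 25 passed (0.0651% and 0.250% of all genes). Within myogenic-like cluster 2, 12 of 26 rose and 2, Hk2 and Pfkfb3, fell (7.54% and 8.66%). Within dendritic-like cluster 17, 1 of 21 rose (0.319% of all genes) and 0 fell (1.23%).

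Slc16a3 and Pgk1 show the pattern by cluster. Slc16a3 was 82.5, 124 and 71.1 CPM in CLL and 32.5, 8.09 and 34.4 CPM in SHAM in cluster 12 and 15.3, 32.9 and 18.8 CPM in CLL and 7.01, 4.89 and 4.78 CPM in SHAM in cluster 14, with log2 fold changes of 1.80 ± 0.29 (SE, adjusted p = 0.00405) and 1.95 ± 0.25 (SE, adjusted p = 0.000469). In cluster 11 it was 37.8, 35.7 and 32.5 CPM in CLL and 7.11, 3.30 and 12.4 CPM in SHAM, a log2 fold change of 2.15 ± 0.32 (SE, adjusted p = 0.00478), and in cluster 10 18.7, 31.4 and 20.1 CPM in CLL and 9.39, 7.04 and 10.1 CPM in SHAM, a log2 fold change of 1.35 ± 0.27 (SE, adjusted p = 0.0506). Pgk1 was 436, 596 and 423 CPM in CLL and 289, 134 and 260.1 CPM in SHAM in cluster 12 and 117, 193 and 154 CPM in CLL and 88.0, 66.9 and 71.8 CPM in SHAM in cluster 14, with log2 fold changes of 1.14 ± 0.23 (SE, adjusted p = 0.0137) and 1.08 ± 0.16 (SE, adjusted p = 0.00119). The fold within a cluster was smaller than that of the whole fibroblast/tenocyte-like class for both genes in both clusters.

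**Figure D5:**
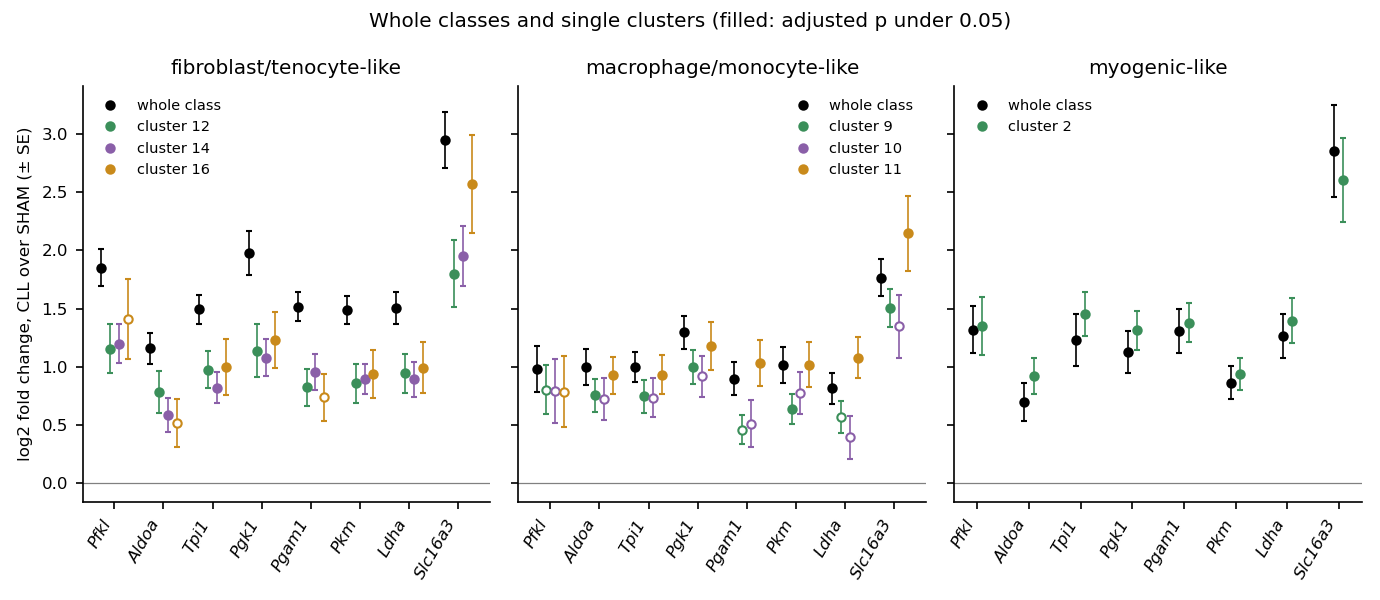
Log2 fold change of CLL over SHAM with its SE for the 8 shared genes, in the whole fibroblast/tenocyte-like, macrophage/monocyte-like and myogenic-like classes and in single clusters of each. Filled points have an adjusted p under 0.05. All points lie above 0, and in macrophage/monocyte-like cluster 10 none is filled. The genes were picked for rising in the whole classes, of which the clusters are parts.

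Whether a change differed between classes was tested directly, with the library as a block, for macrophage/monocyte-like cells against each other tested class. Against fibroblast/tenocyte-like cells, 5 of 31 members had a smaller fold change in macrophage/monocyte-like cells (1.31% of all genes) and 0 a larger one (2.47%). Pgk1 differed by -0.65 ± 0.15 (SE, adjusted p = 0.043) and Ldha by -0.64 ± 0.12 (SE, adjusted p = 0.0278) on the log2 scale. Against dendritic-like cells 4 of 30 had a larger fold change (2.23% of all genes) and 1 a smaller one (2.32%), with Pgk1 at 0.93 ± 0.21 (SE, adjusted p = 0.00881). Against myogenic-like cells 1 of 31 differed, Pgam2, in the lower direction (0.414% of all genes lower and 0.547% higher). Against endothelial-like cells 0 of 29 passed (0.201% lower and 0.554% higher), so a difference between these classes was not shown.

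Isoform shares within a step were compared by library. Of 36 shares with at least 50 UMIs of the step in every library, 20 (55.6%) had groups that did not overlap. The two-sided exact permutation test with 3 against 3 libraries cannot go below p = 0.10, and its adjusted value was 0.18 for each of these. Slc16a3 made up 80.1, 83.8 and 79.8% in CLL and 43.6, 24.4 and 40.2% in SHAM of lactate carrier UMIs in fibroblast/tenocyte-like cells and 85.9, 84.1 and 84.6% in CLL and 58.7, 62.3 and 71.0% in SHAM in macrophage/monocyte-like cells. Pfkl made up 58.3, 61.3 and 62.8% in CLL and 33.8, 31.2 and 38.3% in SHAM of phosphofructokinase UMIs in fibroblast/tenocyte-like cells, and Pfkp 31.7, 31.3 and 28.0% in CLL and 46.4, 44.0 and 34.3% in SHAM. In those cells Slc16a3 led Slc16a1 in every CLL library and in no SHAM library. Pfkl led Pfkp in every CLL library and, of the SHAM libraries, in replicate 3.

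Ldhb had the lower share in CLL in the 4 classes where its share was tested, with no overlap between the groups. It was 1.14, 0 and 1.32% in CLL and 3.21, 1.94 and 2.73% in SHAM in dendritic-like cells. The share was 2.73, 2.03 and 3.36% in CLL and 6.97, 10.2 and 7.12% in SHAM in fibroblast/tenocyte-like cells, 3.65, 2.44 and 5.68% in CLL and 11.0, 12.3 and 9.47% in SHAM in macrophage/monocyte-like cells and 4.88, 3.32 and 3.67% in CLL and 8.003, 10.4 and 9.25% in SHAM in myogenic-like cells. Hk2 made up 66.5, 66.1 and 65.1% in CLL and 83.9, 81.4 and 68.7% in SHAM of hexokinase UMIs in myogenic-like cells, and Eno2 1.68, 1.09 and 1.32% in CLL and 12.0, 8.96 and 4.13% in SHAM of enolase UMIs in fibroblast/tenocyte-like cells. With each cell thinned to 1000 UMIs, 11 shares had groups apart.

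Neighbouring pathways were read from lists of other genes. A list of HIF targets outside glycolysis also held Hif1a, Arnt and Vhl, which are parts or regulators of HIF itself. Of its 19 genes, 15 rose in fibroblast/tenocyte-like cells and 1, Arnt, fell, beside 12.3% and 14.0% of all genes tested there. The smallest p-values belonged to Higd1a (1.94 ± 0.18, adjusted p = 8.48e-05), P4ha2 (1.26 ± 0.14, adjusted p = 0.000197), Ankrd37 (2.40 ± 0.32, adjusted p = 0.000629) and Ndrg1 (1.19 ± 0.17, adjusted p = 0.000866), given as log2 fold change ± SE, as for the other genes in parentheses below. The macrophage/monocyte-like class had 5 of 18 higher (2.22% of all genes), among them Ankrd37 (1.98 ± 0.42, adjusted p = 0.027), the mitophagy receptor Bnip3 (1.22 ± 0.26, adjusted p = 0.0286), the oxygen sensor Egln1 (0.73 ± 0.16, adjusted p = 0.03) and Higd1a (0.62 ± 0.15, adjusted p = 0.043). Myogenic-like cells had 2 of 17 higher (2.95% of all genes), Higd1a (1.08 ± 0.24, adjusted p = 0.0296) and Egln1 (1.12 ± 0.25, adjusted p = 0.0308), and dendritic-like and endothelial-like cells 0 of 14 and 0 of 16. The list's median log2 fold change was 1.14, 0.37, 0.94, 0.20 and 0.45 in the 5 classes, in the order fibroblast/tenocyte-like, macrophage/monocyte-like, myogenic-like, dendritic-like and endothelial-like.

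Branches that leave glycolysis rose in fibroblast/tenocyte-like cells in part, and their counts stand beside the 12.3% of all genes that rose and the 14.0% that fell in that class. Of the serine, polyol, glycerol phosphate and hexosamine branches 7 of 12 rose and 0 fell, with the serine synthesis enzymes Psat1 (0.99 ± 0.15, adjusted p = 0.00113) and Phgdh (0.75 ± 0.18, adjusted p = 0.0106), the folate enzyme Shmt2 (0.68 ± 0.14, adjusted p = 0.00519) and the aldose reductase Akr1b3 (0.53 ± 0.12, adjusted p = 0.00794). Of the pentose phosphate pathway 4 of 8 rose, Tkt (0.57 ± 0.12, adjusted p = 0.00559), Pgd (0.41 ± 0.11, adjusted p = 0.0214), Pgls (0.43 ± 0.13, adjusted p = 0.0373) and Taldo1 (0.35 ± 0.12, adjusted p = 0.0486). Of glycogen genes 4 of 16 rose and 3 fell, led by Pgm1 (0.88 ± 0.14, adjusted p = 0.00146) and glycogen synthase Gys1 (1.12 ± 0.18, adjusted p = 0.00153) upward and the lysosomal glucosidase Gaa (-0.61 ± 0.15, adjusted p = 0.0109) and Gyg (-0.46 ± 0.12, adjusted p = 0.0143) downward. The other carriers were near those shares, with 1 of 10 higher, Bsg (0.85 ± 0.16, adjusted p = 0.00341), the partner protein of both lactate carriers, and 2 lower, Slc16a6 (-0.89 ± 0.25, adjusted p = 0.0261) and Slc37a2 (-1.34 ± 0.39, adjusted p = 0.0273).

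Pyruvate entry to mitochondria gave counts near the shares of all genes in fibroblast/tenocyte-like cells (12.3% higher and 14.0% lower). Of 13 entry genes 2 rose there, Pdk3 (0.63 ± 0.12, adjusted p = 0.00362) and the pyruvate carrier subunit Mpc1 (0.44 ± 0.12, adjusted p = 0.0174), and 1 fell, Pdk2 (-0.71 ± 0.20, adjusted p = 0.025). Pdk4 fell in myogenic-like cells (-1.07 ± 0.21, adjusted p = 0.0188) and Mpc1 rose in dendritic-like cells (1.08 ± 0.22, adjusted p = 0.0256). Of 5 gluconeogenesis and brake genes G6pc3 (0.66 ± 0.12, adjusted p = 0.00353) and Pcx (0.84 ± 0.19, adjusted p = 0.00878) rose in fibroblast/tenocyte-like cells. In macrophage/monocyte-like cells the glycogen gene Ugp2 (0.50 ± 0.12, adjusted p = 0.0436) was the 1 call among the glycogen, pentose phosphate, side branch, carrier, entry and brake lists, and in myogenic-like cells Psph rose (0.82 ± 0.20, adjusted p = 0.0405) and Gpd1l fell (-0.91 ± 0.23, adjusted p = 0.0457).

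Markers of other cells moved with some of these groups. Fibroblast markers summed to 1267 to 2019 CPM in macrophage/monocyte-like cells of CLL and 1112 to 3767 CPM in SHAM, against 29780 to 40390 CPM in fibroblast/tenocyte-like cells. Proliferation markers summed to 245 to 312 CPM in CLL and 74.9 to 175 CPM in SHAM in macrophage/monocyte-like cells. Myofibre markers summed to 1774 to 6669 CPM in CLL and 700 to 1464 CPM in SHAM in myogenic-like cells, where Acta1 rose by 1.10 ± 0.18 (SE, adjusted p = 0.0102), while in macrophage/monocyte-like cells Ckm fell by 1.48 on the log2 scale. Mural markers, a list of 10 genes, summed to 427 to 671 CPM in CLL and 158 to 245 CPM in SHAM in fibroblast/tenocyte-like cells, and to 196 to 303 CPM in CLL and 1267 to 1801 CPM in SHAM in endothelial-like cells. Proliferation markers in endothelial-like cells summed to 250.1 to 318 CPM in CLL and 527 to 762 CPM in SHAM. The part of these markers in the results was not tested. In sums over cells, a change in the cells that make up a class and a change per cell cannot be told apart.

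Classes too small to test give values only. In mural-like cells, which wrap small vessels, Slc16a3 was 16.6, 39.8 and 55.3 CPM in CLL and 7.41, 4.42 and 9.73 CPM in SHAM, with no overlap between the groups. In glial-like cells Tpi1 was 234, 192 and 268 CPM in CLL and 134, 108 and 112 CPM in SHAM, and Slc16a3 was 0, 16.9 and 50.2 CPM in CLL and 7.80, 0 and 4.30 CPM in SHAM. Myofibre-like cells had member sums of 11240, 11320 and 10750 CPM in CLL, inside the range of SHAM.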

How the data were processed

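Single-cell RNA was measured in 6 libraries of injured mouse quadriceps, 3 CLL and 3 SHAM, grouped by the treatment label, each from its own mouse per the labels. Dispase and collagenase I released the cells, Ficoll cleared debris, and the kit was Chromium Single Cell 3', version 3.1, per the labels' protocols. The deposited unit is the raw UMI count per gene and barcode, made with Cell Ranger 6.1.2 on build mm10, per the submitters' processing notes. No source used here states how barcodes were selected before deposit.

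Kept barcodes had 300 or more genes and no more than 15% mitochondrial UMIs, and the highest Scrublet scores were removed as doublets at 0.8% per 1000 barcodes (7032 barcodes). Leiden clustering in scanpy 1.11.5 used resolution 1, 15 neighbours and 30 principal components of 2000 variable genes. Naming a cluster needed at least 3 markers of a list, each detected in 10% of its cells. The mean log2 fold over the other cells had to be at least 0.5. A cluster stayed unnamed when ribosomal-RNA-overlapping or mitochondrial transcripts led it. It also stayed unnamed when another list scored more than 0.5 times the best score. After the clusters had been seen, this last rule was lifted between the Myogenic and Myofibre lists. Cluster 1, which scored 2.88 and 2.28 on them, was therefore named and joined the myogenic-like class. A cluster led by Siglech and Ccr9 was left unnamed, also after the clusters had been seen. Counts were summed per class and library and tested with edgeR 4.0.16 (R 4.3.3), using its quasi-likelihood test, TMM scaling, filterByExpr and Benjamini-Hochberg adjustment over all genes of a class at 0.05. All adjusted p-values in the text come from edgeR unless another test is named. CPM are counts scaled to the class total, without TMM factors.

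The members and lists were chosen with earlier results of these data known. Every member past 0.05 in a class was given in full there, and up to 4 genes with the smallest p were named per companion list. DESeq2 1.42.0, other scaling, filters, cell sets, thinning to 1000 UMIs, the replicate number as a block and leaving out libraries were run as alternatives. The test was checked on simulated counts of the macrophage/monocyte-like class (11301 genes): 49% of genes changed 2-fold and 99% of genes changed 4-fold were recovered, and 0.045% of unchanged genes were called.

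Same-numbered CLL and SHAM libraries were checked for shared deviations from their group means. The labels do not say that a number marks a shared batch, and the correlation of same-numbered pairs was over 0.1 for every pair only in the endothelial-like class (0.132, 0.314 and 0.179).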

Additional observations from a re-analysis of the deposited data

Results flagged for a closer look

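In 11 comparisons, of 9 genes, the log2 fold change of CLL over SHAM differed between macrophage/monocyte-like cells and another class, in an edgeR test of the difference itself with the library as a block. Differences are the macrophage/monocyte-like fold minus the other. The 2 classes' own log2 folds follow each difference with their SE, macrophage/monocyte-like first.

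Against fibroblast/tenocyte-like cells 5 genes had the smaller fold in macrophage/monocyte-like cells. Pfkfb3 differed by -1.11 ± 0.16 (SE, adjusted p = 0.0105), from folds of -0.25 ± 0.17 and 0.92 ± 0.24. Eno1 differed by -1.01 ± 0.18 (SE, adjusted p = 0.023), from 0.79 ± 0.23 and 1.86 ± 0.26. Pfkl, the liver phosphofructokinase, differed by -0.79 ± 0.17 (SE, adjusted p = 0.0404), from 0.98 ± 0.20 and 1.85 ± 0.16. Pgk1 differed by -0.65 ± 0.15 (SE, adjusted p = 0.043), from 1.30 ± 0.14 and 1.98 ± 0.19. Ldha differed by -0.64 ± 0.12 (SE, adjusted p = 0.0278), from 0.82 ± 0.13 and 1.50 ± 0.14. The last 3 genes rose in both classes.

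Against dendritic-like cells 4 genes had the larger fold in macrophage/monocyte-like cells. Slc2a1 differed by 1.67 ± 0.44 (SE, adjusted p = 0.0266), from 0.78 ± 0.17 and -0.96 ± 0.45. Eno1 differed by 1.00 ± 0.23 (SE, adjusted p = 0.00998), from 0.79 ± 0.23 and -0.41 ± 0.38. Pgk1 differed by 0.93 ± 0.21 (SE, adjusted p = 0.00881), from 1.30 ± 0.14 and 0.27 ± 0.23, and Pkm by 0.76 ± 0.20 (SE, adjusted p = 0.0271), from 1.02 ± 0.15 and 0.19 ± 0.21. Eno3 went the other way, by -1.40 ± 0.38 (SE, adjusted p = 0.0314), from -0.33 ± 0.27 and 0.84 ± 0.31, neither of which passed on its own. Within dendritic-like cluster 17 the Eno3 fold was -0.21 ± 0.43 (SE, adjusted p = 0.948), of the other sign, and that cluster held 56.09% of the class in CLL and 84.09% in SHAM.

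Against myogenic-like cells Pgam2 differed by -1.48 ± 0.27 (SE, adjusted p = 0.0445), from -0.73 ± 0.39 and 0.65 ± 0.26. Ckm, a fibre transcript, changed by -1.48 in macrophage/monocyte-like cells.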

How the results depend on the processing

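The count of members higher in CLL stayed within 1.5 times of the main count under RLE scaling and without a filter in the 5 tested classes. Leaving out 1 library at a time gave 16 to 20 members higher in fibroblast/tenocyte-like, 3 to 10 in macrophage/monocyte-like, 5 to 10 in myogenic-like and 0 to 1 in dendritic-like cells, and 0 to 2, 0 to 1 and 0 to 2 lower in the first 3. Over all genes, the same fits gave 1123 to 1720, 10 to 292, 64 to 462 and 1 to 209 higher in these classes. They gave 1203 to 1790, 34 to 439 and 90 to 551 lower in the first 3. Without the 2 libraries that stand apart, 4 members were higher in macrophage/monocyte-like and 0 in dendritic-like cells, and 2 were lower in myogenic-like cells. Over all genes, 11 of 11482 and 25 of 8425 were higher in the first 2, and 458 of 11885 were lower in myogenic-like cells. In dendritic-like cells 0 were also higher under DESeq2, with cells thinned to 1000 UMIs, without doublet removal and with members withheld from clustering. Over all genes, 56 of 17147, 31 of 1789, 1 of 7458 and 13 of 7063 were higher in these fits, in that order. In endothelial-like cells 1 was higher under DESeq2, at a mitochondrial limit of 10% and with members withheld, where 25 of 18825, 67 of 9591 and 61 of 9545 of all genes were. Thinning gave 6 higher in myogenic-like cells, 0 lower in fibroblast/tenocyte-like cells and 11 isoform shares with groups apart. Over all genes, it gave 113 of 4476 higher in myogenic-like and 705 of 9477 lower in fibroblast/tenocyte-like cells. Members lower numbered 2 without a filter in each of fibroblast/tenocyte-like, macrophage/monocyte-like and myogenic-like cells, 2 in fibroblast/tenocyte-like cells with members withheld, and 0 in myogenic-like cells without doublet removal. Over all genes, 2140 of 22901, 896 of 20115 and 792 of 19768 were lower without a filter. With members withheld 2029 of 14128 were lower, and without doublet removal 353 of 11836. The cause was not tested.

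Fits within single clusters, chosen after seeing the data for the fibroblast/tenocyte-like, myogenic-like and dendritic-like classes, rest on fewer cells. Members higher numbered 9, 10 and 6, and lower 0, 0 and 0, in clusters 12, 14 and 16, while higher numbered 5 and 0 in clusters 9 and 10. Lower numbered 1 in cluster 9 and 2 in cluster 2. Hk1 turned to -0.16 within cluster 16. Over all called members within single clusters, 28 of 54 values in fibroblast/tenocyte-like and 18 of 30 in macrophage/monocyte-like cells kept direction but missed the threshold.

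Leaving out 1 library gave 28 to 34 companion genes higher in fibroblast/tenocyte-like, 0 to 6 in macrophage/monocyte-like, 0 to 5 in myogenic-like and 0 to 3 in dendritic-like cells, and 2 to 6, 0 to 1 and 0 to 2 lower in the first 3. Members whose fold differed from macrophage/monocyte-like cells ranged from 0 to 8 against fibroblast/tenocyte-like, 1 to 6 against dendritic-like and 0 to 1 against myogenic-like cells. Over all genes, 15 to 614, 79 to 447 and 0 to 107 had the larger fold in macrophage/monocyte-like cells. The smaller fold there was held by 8 to 492, 92 to 358 and 3 to 191 genes. Isoform shares with groups apart ranged from 21 to 25. Leaving out a library cannot make groups overlap that were apart, so this range does not measure stability. Cells with markers of another class were left out only in the fibroblast/tenocyte-like class, where 13 members were higher and 1 lower, since too few cells remained in a library of the others. Of all 11820 genes tested in that fit, 601 were higher and 677 lower.

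With the replicate block, 19, 9, 8, 1 and 0 members were higher in fibroblast/tenocyte-like, macrophage/monocyte-like, myogenic-like, dendritic-like and endothelial-like cells, and 1, 0, 1, 0 and 0 lower. Over all genes, the block gave 1455, 153, 115, 33 and 49 higher and 1599, 255, 179, 104 and 79 lower. In the endothelial-like class, whose same-numbered libraries each correlated best with each other, the block moved the count over all genes from 6 higher and 30 lower to 49 and 79, with no member among them. Depth limits the low members most, as Slc2a4 could be tested in no class.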

Other observations

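Cells of unnamed clusters enter no comparison above, and 1 library dominates several of them. In cluster 0, led by histone and Top2a transcripts of dividing cells, Slc16a3 was 94.0, 121 and 73.1 CPM in CLL and 27.4, 9.53 and 8.58 CPM in SHAM and Ldha was 599.6, 704 and 499.9 CPM in CLL and 339.7, 314 and 232 CPM in SHAM. The groups did not overlap for either gene, and no test was run. In cluster 13, led by nuclear transcripts, Hk2 was 960.4, 543 and 1018 CPM in CLL and 546, 1365 and 997 CPM in SHAM. Cluster 3, led by Ndufa4l2, Col8a1 and Lox, drew 3482 of its 3971 cells from CLL replicate 2, and cluster 6 drew 4853 of 5634 from SHAM replicate 3. Of the adipocyte-like class, the CLL libraries held 18, 644 and 23 cells and the SHAM libraries 4, 4 and 2, so their member sums of 5878 to 6117 CPM in CLL have no usable SHAM value beside them.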
